A study of Mus musculus with 9 samples.

Results

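The genes described here encode proteoglycans at the cell surface and in the matrix beside it, and enzymes and a receptor of hyaluronan. They are the syndecans Sdc1, Sdc2 and Sdc4, the glypican Gpc1, the basement membrane proteoglycans Hspg2 and Agrn, the matrix proteoglycan Vcan, the hyaluronan synthases Has2 and Has3, and the hyaluronan receptor Cd44. The members were taken by symbol, through every probe set whose single gene symbol in the platform annotation was one of these 10. All 10 had at least 1 probe set, with 30 in all, out of 18193 genes and 34945 probe sets with a single symbol. A gene was valued by its probe set of greatest mean intensity over all 9 arrays, and the others served as a check. Only some of these proteins sit in the cell membrane, since perlecan (Hspg2), agrin and versican (Vcan) are secreted.

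RNA came from the centre of the cornea of adult male mice of 3 inbred strains, called B6 (C57Bl/6J), KS (C57BLKS/J) and SJL (SJL/J) below, with 3 mice of each. KS is labelled as having a thin cornea and SJL a thick one, and B6 carries no such label. The mice were 4 months old, and the 2-mm punches of both eyes of a mouse were pooled, so each array stands for 1 mouse. Thickness and strain cannot be told apart in this design, and a punch spans epithelium, stroma and endothelium, so fewer cells of a type and less RNA per cell cannot be told apart either.

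Heparan sulfate proteoglycans carry long sulfated sugar chains on a core protein, and through these chains they bind growth factors, chemokines and matrix proteins. Syndecans span the membrane, glypicans are held by a lipid anchor, and perlecan and agrin are built into basement membranes such as the one under the corneal epithelium. Hyaluronan is a sugar polymer with no core protein. It is made at the plasma membrane by the hyaluronan synthases and bound at the cell surface by CD44 and in the matrix by versican.

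Values are the deposited probe set intensities on a linear scale, given as means ± SD with n = 3 arrays per strain, and each difference is on the scale of log2(intensity + 10), which understates changes of dim genes. Over the whole table intensities ran from 3.39 to 37501, and the lower end was crowded, with 54.6% of values under 16. Probe sets differ in their probes, so a level is compared between strains and never between genes. A difference is called when its limma adjusted p is under 0.05. The markers of corneal epithelium (8 of 8 tested) and of stroma (8 of 8) were well above the lower end in every strain, which fits the labelled tissue. Retina markers had a summed intensity of 4734 on KS replicate 3 and of 33.5 to 42.9 on the other arrays, with Prph2 and Pde6a below 16 throughout, so results for KS are also given without that array where they differ. The ratio of 3' to 5' control signal was highest on B6 replicate 3, where the Gapdh signals differed by 1.55 on the log2 scale, beside 0.73 to 1.16 elsewhere.

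Of the 10 members 7 passed the filter on dim probe sets and were tested, and Vcan, Has2 and Has3 did not pass. Between the labelled thick and thin corneas, SJL and KS, 0 of the 7 gene values were called by limma, beside 14.9% of all 10956 gene values tested. In KS against B6 only Sdc2 was called, and it was higher in KS, beside 6.27% of all gene values called. In SJL against B6 Sdc2 was called higher and Cd44 lower, beside 16.1% of all. An F-test over the 3 strains called Sdc2 of the 7 (limma adjusted p = 0.0130), beside 19.4% of all gene values. The median difference of the 7 was -0.23 for SJL minus KS, 0.04 for KS minus B6 and -0.12 for SJL minus B6, and that of all genes tested was 0.02, 0.01 and 0.02. The contrasts share strains, so their values are not independent of one another.

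**Figure D1:**
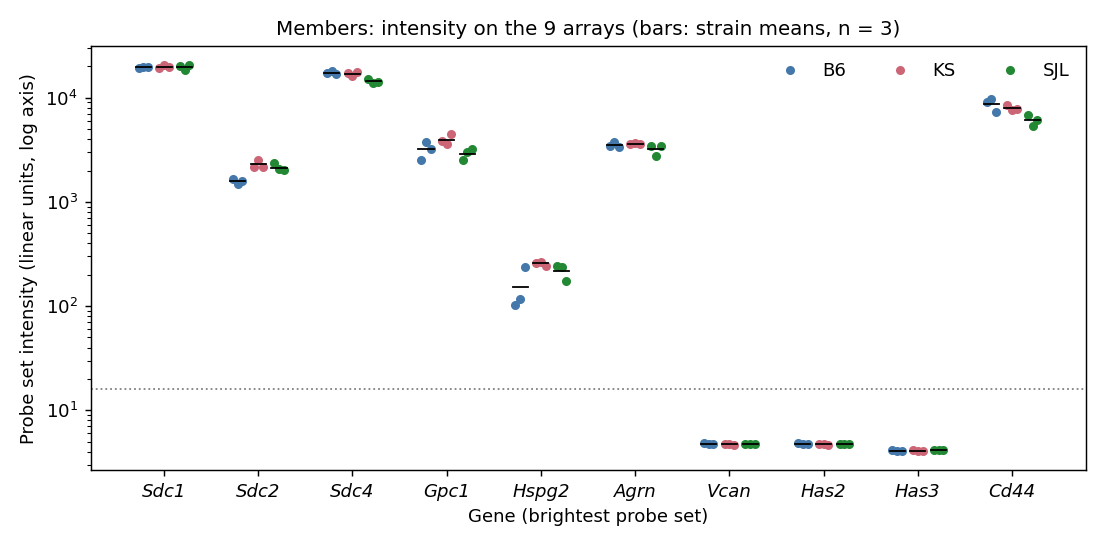
Probe set intensity (log axis) of the 10 members on the 9 arrays, by strain, with each point an array, each bar a strain mean (n = 3) and the dotted line an intensity of 16. Vcan, Has2 and Has3 lay at or below 4.91 on every array, and for Cd44 and Sdc4 the 3 SJL arrays were the lowest.

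Among the syndecans, Sdc1 was the steadiest. Sdc1, the main syndecan of stratified epithelia, lay at 19308, 19867 and 19867 on the B6 arrays, at 19110, 20389 and 19745 on the KS arrays and at 19931, 18397 and 20492 on the SJL arrays. The strains overlapped completely, and the difference of SJL from KS was -0.01, with a 95% interval of -0.19 to 0.17 (adjusted p = 0.949). A second bright probe set of Sdc1 (1415944_at) averaged 16294 ± 734 in B6, 15238 ± 189 in KS and 17280 ± 981 in SJL. All 3 SJL arrays lay above the KS arrays there, but the difference of 0.18 was not called (adjusted p = 0.182, or 0.0380 with an intensity trend in the variance prior). The remaining 2 probe sets of Sdc1 differed from KS by 0.12 and 0.04 in SJL and were not called.

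Sdc2, a syndecan of mesenchymal cells, was lower in B6 than in both other strains. On its brightest probe set B6 had 1660, 1490 and 1603, KS had 2183, 2503 and 2172, and SJL had 2337, 2055 and 2008. No B6 array reached the lowest array of KS or SJL, while KS and SJL overlapped. The difference from B6 was 0.52 ± 0.0998 (SE) in KS, or 1.44-fold (adjusted p = 0.0184), and 0.43 in SJL, or 1.34-fold (adjusted p = 0.0217). Between SJL and KS it was -0.10, with an interval of -0.33 to 0.13 (adjusted p = 0.566).

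The other probe sets of Sdc2 pointed the same way with more scatter. Probe set 1417012_at averaged 567 ± 69.9 in B6, 914 ± 229 in KS and 946 ± 97.4 in SJL, which was called in SJL against B6 (0.73, adjusted p = 0.0251) and not in KS against B6 (0.66, adjusted p = 0.0757). Probe set 1448545_at averaged 770 ± 79.2, 990 ± 154 and 903 ± 109 and was not called in either (0.35 and 0.23). A probe set at 4.47 to 4.69 on all arrays was not tested. The call for KS was lost without B6 replicate 2 (adjusted p = 0.0611) or KS replicate 2 (0.0784), or with the mean of all Sdc2 probe sets (0.0574), and was kept without KS replicate 3 (0.0487). The mean of all probe sets takes in the untested one at the lower end, which shrinks the difference. The call for SJL was lost without B6 replicate 2 (0.0710) or SJL replicate 1 (0.0540), or with only the 6 arrays compared (0.0523). That of 1417012_at was lost on leaving out B6 replicate 2 or 3, or SJL replicate 1 or 3 (0.0677 to 0.0783), on adding the replicate number as a block (0.0527), or with no filter (0.0850).

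Sdc4, the syndecan found at focal adhesions, was the member whose probe sets went apart. Its brighter probe set, 1417654_at, lay at 17130, 18059 and 17008 in B6, at 17151, 16165 and 17583 in KS and at 15221, 13879 and 14257 in SJL. The 3 SJL arrays were below all 6 others, by a difference of -0.23 from KS (interval -0.41 to -0.05, adjusted p = 0.0923) and -0.27 from B6 (adjusted p = 0.0556), which narrowly missed the threshold. With no filter on dim probe sets both were called (adjusted p = 0.0409 and 0.0229).

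The second probe set of Sdc4, 1448793_a_at, was higher in SJL. It lay at 2134, 3027 and 1800 in B6, at 2063, 2544 and 2673 in KS and at 6273, 7665 and 6618 in SJL. The lowest SJL array was above the highest array of the other strains. The difference was 1.50 ± 0.193 (SE) from KS, or 2.82-fold (adjusted p = 0.00119), and 1.59 from B6 (adjusted p = 0.000802), while KS and B6 differed by 0.09 (adjusted p = 0.849). Each call was kept in all 19 alternatives that tested this probe set. Within an array, the log2 value of the second probe set minus that of the brighter one was 1.73 higher in SJL than in KS. The exact two-sided permutation p of 0.1 is the smallest that 3 against 3 arrays allow. It was fixed by the separation of SJL on both probe sets given above, so it adds no support. The probe sequences were not used here, so the part of the transcript that each probe set reads, and any strain difference under the probes, was not tested. The mean over both probe sets was higher in SJL than in KS by 0.63 (adjusted p = 0.00498), so the direction for Sdc4 as a gene turned with the choice of probe set.

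**Figure D2:**
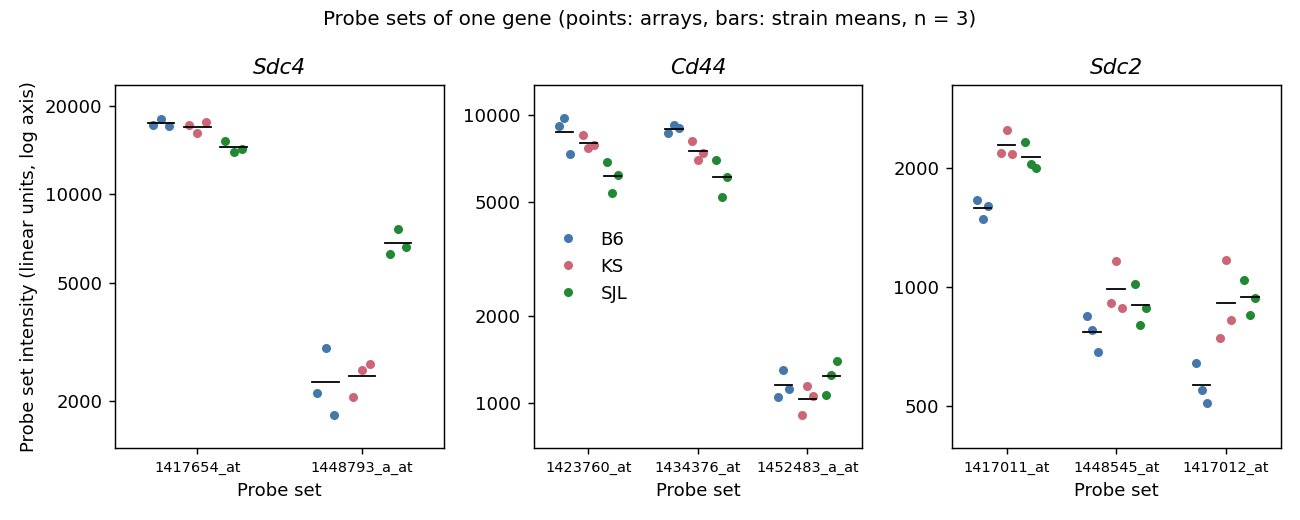
Intensity (log axis) on the 9 arrays of the tested probe sets of Sdc4, Cd44 and Sdc2, with points for arrays and bars for strain means (n = 3). For Sdc4 the SJL arrays are lowest on 1417654_at and highest on 1448793_a_at, for Cd44 they are lower than B6 on the probe sets with the higher signal, and for Sdc2 the B6 arrays are lowest on 1417011_at and 1417012_at.

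Gpc1, a lipid-anchored glypican, was read by a single probe set. It lay at 2539, 3798 and 3224 in B6, at 3814, 3574 and 4435 in KS and at 2514, 2993 and 3224 in SJL. KS was above SJL on every array and overlapped B6. The difference of SJL from KS was -0.44, with an interval of -0.82 to -0.06 (adjusted p = 0.121), and that of KS from B6 was 0.32 (adjusted p = 0.340), so the order of KS, B6 and SJL did not hold beyond the spread. Agrn, which encodes agrin, an organiser of synapses and basement membranes, averaged 3506 ± 204 in B6, 3605 ± 42.3 in KS and 3216 ± 372 in SJL. Its difference of SJL from KS was -0.17 (adjusted p = 0.319), and a second Agrn probe set lay at 4.18 to 4.28 on all arrays.

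Hspg2, the core protein of perlecan, gave a low signal that varied within B6. Its brighter probe set, whose suffix marks sequence that may be shared with other transcripts, lay at 101, 118 and 236 in B6, at 262, 268 and 242 in KS and at 242, 235 and 176 in SJL. B6 replicate 3 lay with the other strains, and the other B6 arrays lay below all of them. The difference from B6 was 0.81 ± 0.271 (SE) in KS (adjusted p = 0.144) and 0.57 in SJL (adjusted p = 0.204). Without B6 replicate 3, the array with the highest 3' to 5' ratio, they were 1.16 (adjusted p = 0.00536) and 0.92 (adjusted p = 0.00720). The Hspg2 comparison turned on that 1 array, and the part of its RNA quality in this was not tested. The other Hspg2 probe set averaged 10.3 ± 1.01 in B6, 15.4 ± 4.45 in KS and 10.5 ± 1.13 in SJL, close to the lower end.

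Cd44, the receptor that binds hyaluronan and is linked to the cytoskeleton through ezrin and its relatives, was lower in SJL than in B6. Its brightest probe set lay at 9172, 9778 and 7310 in B6, at 8536, 7663 and 7845 in KS and at 6874, 5359 and 6176 in SJL. The SJL arrays were below all others, and B6 and KS overlapped. The difference of SJL was -0.51 from B6, with B6 1.42-fold higher (adjusted p = 0.0374), and -0.39 from KS (interval -0.70 to -0.08, adjusted p = 0.0950). The second probe set, 1434376_at, averaged 8956 ± 285 in B6, 7482 ± 586 in KS and 6092 ± 893 in SJL. It differed from B6 by -0.57 in SJL (adjusted p = 0.0133) and by -0.26 in KS (adjusted p = 0.278).

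These Cd44 results differed in how firm they were. The call of the brightest probe set in SJL against B6 was lost without B6 replicate 1 (0.109) or 2 (0.111), without any 1 of the KS arrays (0.0563 to 0.0639), and without SJL replicate 2 (0.0936) or 3 (0.0950). It was also lost with no filter (0.0948) and with only the 6 arrays compared (0.0997). That of 1434376_at was kept in all 20 alternatives that tested it, with an adjusted p of at most 0.0452. Another probe set of Cd44, 1452483_a_at, showed no such order, with 1155 ± 131 in B6, 1035 ± 120 in KS and 1240 ± 168 in SJL, and its difference of SJL from B6 was 0.10, with an interval of -0.22 to 0.42. Cd44 is spliced into many forms, and which of them each probe set reads was not tested. The remaining probe set lay at 4.73 to 4.94.

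The hyaluronan synthases and versican were not measured above the lower end of the scale. Has2, the synthase best known from development and wound repair, lay between 4.64 and 4.89 on all arrays by both of its probe sets, and Has3, a synthase of keratinocytes, between 4.08 and 4.16. The 8 probe sets of Vcan, a large proteoglycan that binds hyaluronan, lay between 4.25 and 4.91. The brightest probe set of each stood at percentile 29.4 (Vcan), 29.3 (Has2) and 1.98 (Has3) of all probe sets by mean log2 value. No detection call was used, so these levels are upper bounds and no strain comparison was made. Has1, the other synthase, was also not tested, at 4.30 to 4.33 on average in the strains.

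**Figure D3:**
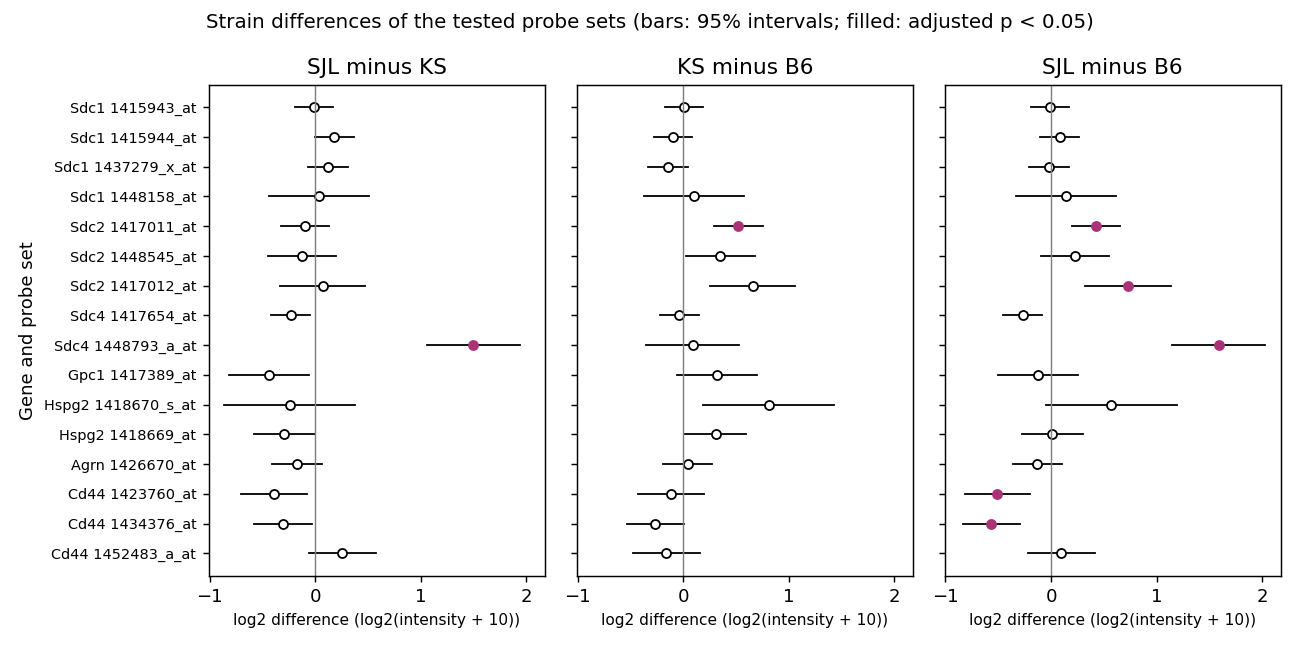
Difference in log2(intensity + 10) between strains for the 16 tested probe sets of the members, with 95% intervals from the limma fit and filled points for adjusted p under 0.05. In SJL minus KS and SJL minus B6 the second Sdc4 probe set stands apart at 1.50 and 1.59, and in KS minus B6 only 1417011_at of Sdc2 is filled.

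Over single probe sets, 16 of the 30 were tested. In SJL against KS 1 was called, the second one of Sdc4, which was higher, beside 15.5% of all probe sets (6.98% higher and 8.52% lower). In KS against B6 1 was called, one of Sdc2 that was higher, beside 5.71% (2.91% higher and 2.8% lower). In SJL against B6 3 were higher and 2 lower, of Sdc2, Sdc4 and Cd44, beside 7.92% of all probe sets called higher and 8.09% called lower. The 3 arrays of SJL lay apart from the 3 of KS for 4 of the 7 gene values (Sdc4, Gpc1, Agrn and Cd44, all lower in SJL), beside 35.5% of all gene values in either direction. KS lay apart from B6 for 2 of the 7 (Sdc2 and Hspg2), beside 31.1%, and SJL from B6 for 3 (Sdc2, Sdc4 and Cd44), beside 32.8%.

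Promoter sequences of RefSeq (GRCm38.p6) were matched for 6 of the 10 members. Those of Sdc4 and Cd44 are shown because probe sets of these genes separated SJL from B6. They are the sequence of the reference strain, C57BL/6J, and no measurement here was made at them. Each runs 5′ to 3′ from 250 bases before to 50 after the start of the gene, on the minus strand, at chr2:164443139-164443438 for Sdc4 and chr2:102901616-102901915 for Cd44. Capitals mark the GC box GGGCGG or its reverse complement CCGCCC.
Sdc4: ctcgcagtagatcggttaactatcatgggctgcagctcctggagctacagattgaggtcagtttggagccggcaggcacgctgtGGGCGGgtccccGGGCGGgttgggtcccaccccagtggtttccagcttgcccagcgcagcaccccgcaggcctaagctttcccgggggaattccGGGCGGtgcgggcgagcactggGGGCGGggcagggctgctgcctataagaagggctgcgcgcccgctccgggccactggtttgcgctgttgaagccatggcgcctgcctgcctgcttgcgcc
Cd44: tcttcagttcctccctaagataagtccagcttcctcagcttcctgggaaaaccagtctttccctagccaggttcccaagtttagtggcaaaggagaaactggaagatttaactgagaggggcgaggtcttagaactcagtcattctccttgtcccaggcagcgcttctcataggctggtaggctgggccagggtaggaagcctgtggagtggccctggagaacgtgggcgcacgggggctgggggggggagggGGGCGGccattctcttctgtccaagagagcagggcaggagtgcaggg
The Sdc4 window held 4 GC boxes and had a GC content of 67.7%, and the Cd44 window held 1 and had 58.0%. A GC box was present in each of the 7 windows of the 6 matched members and in 35.7% of the 32851 windows of this length, and this was not tested.

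The genes nearest in pattern were found by the root mean square distance of centred log2 values over the 9 arrays. Sdc2 was nearest to Tmx4 (0.0826), Dpysl3 (0.0884) and Rad52 (0.0930). Through this choice each of them had B6 as the lowest strain, with Tmx4 at 2288 ± 102 in B6, 3070 ± 127 in KS and 2895 ± 306 in SJL. Hspg2 was nearest to Col7a1 (0.216), Dock6 (0.223) and Sgsm2 (0.228), with Col7a1, the collagen of anchoring fibrils, at 170 ± 42.4 in B6, 292 ± 30.1 in KS and 223 ± 15.7 in SJL. These distances rest on 9 arrays of 3 strains.

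Among the other genes of these pathways some differences were much larger than those of the members. The 93 listed genes covered further heparan sulfate proteoglycans, the making and editing of heparan sulfate chains, the making, binding and breakdown of hyaluronan, relatives of versican, and adaptors, proteases and receptors. Of these 88 were on the array and 54 were tested. In SJL against KS 0 were called higher and 7 lower, beside 6.8% and 8.08% of all gene values. In KS against B6 3 were higher and 0 lower, beside 3.4% and 2.87%, and in SJL against B6 0 were higher and 5 lower, beside 8.39% and 7.68%. The median difference was -0.10 for SJL minus KS, 0.09 for KS minus B6 and -0.03 for SJL minus B6, and that of all genes tested was 0.02, 0.01 and 0.02. Without KS replicate 3 the counts were 5 lower for SJL minus KS, 1 higher for KS minus B6 and 4 lower for SJL minus B6. With array weights they were 3 higher and 12 lower for SJL minus KS, 5 higher and 2 lower for KS minus B6, and 5 higher and 5 lower for SJL minus B6, so the one-sided counts did not hold there. Nor did they hold with an intensity trend, which gave 1 higher for SJL minus KS, 2 lower for KS minus B6 and 2 higher for SJL minus B6. The mean of all probe sets gave 2, 1 and 2 of these. Leaving out B6 replicate 1 or 3 gave 1 higher for SJL minus KS and 1 higher for SJL minus B6, and some other settings also gave 1 in a contrast. The count of 3 higher in KS against B6 also fell to 1 without B6 replicate 2 or KS replicate 2 and with the replicate number as a block, and the count of 5 lower in SJL against B6 fell to 3 without SJL replicate 3.

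Of 7 further heparan sulfate proteoglycans and related receptors tested, 2 were lower in SJL than in KS and 1 was higher in KS than in B6. Gpc6, a glypican, stood apart in KS, with 759, 708 and 628 there, 87.7, 72.4 and 109 in B6 and 146, 89.4 and 67.5 in SJL. The lowest KS array was above every array of the other strains, and the strain mean was 2.84 above that of B6, or 7.16-fold (adjusted p = 0.000215), while SJL differed from KS by -2.73 (adjusted p = 0.000145). The other 2 tested probe sets of Gpc6 were also called in both contrasts, at 5.09, 80.6 and 5.26 and at 4.13, 23.2 and 4.56 on average in B6, KS and SJL, and without KS replicate 3 the difference from B6 was 2.91. Gpc6 thus set KS apart from B6 and SJL alike, while the member Gpc1 overlapped between KS and B6. Nrp1, neuropilin 1, is a receptor of semaphorins and vascular growth factor. It averaged 867 ± 122 in B6, 1260 ± 219 in KS and 712 ± 98.7 in SJL. It was lower in SJL than in KS (-0.81, adjusted p = 0.0114), as were both of its other tested probe sets. The Nrp1 gene value was not called in KS against B6 (0.53, adjusted p = 0.117) or in SJL against B6 (-0.28, adjusted p = 0.302). In KS against B6 the brighter of the other tested probe sets was called higher (0.79, adjusted p = 0.0117). The dimmer was not called (0.77, adjusted p = 0.0760). With the mean of all probe sets Nrp1 was also called higher in KS than in B6 (0.56, adjusted p = 0.0195).

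Of 21 tested genes that make or edit heparan sulfate chains, 3 were lower in SJL than in KS, 2 higher in KS than in B6 and 3 lower in SJL than in B6. B3galt6, the galactosyltransferase that adds a sugar of the linker between core protein and chain, lay at 954, 1039 and 1162 in B6, at 868, 910 and 861 in KS and at 15.1, 9.19 and 9.75 in SJL. The SJL arrays were close to the lower end, and the difference was -5.39 from KS (adjusted p = 4.17e-08) and -5.64 from B6 (adjusted p = 3.66e-08). Its second tested probe set went the same way, at 75.1 ± 22.9 in B6, 70.1 ± 17.7 in KS and 15.1 ± 5.52 in SJL (-1.67 from KS, adjusted p = 0.00209), and a strain difference under the probes was not tested. Both B3galt6 calls were kept in all 21 alternatives.

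Other enzymes of the chains differed less. Hpse, heparanase, which cuts heparan sulfate, averaged 846 ± 116 in B6, 885 ± 135 in KS and 473 ± 45.6 in SJL, with SJL below both on every array (-0.88 from KS, adjusted p = 0.00411, and -0.82 from B6, adjusted p = 0.00571). These calls were kept in all 21 alternatives. Hs3st3b1, a 3-O-sulfotransferase, averaged 5513 ± 533, 6529 ± 460 and 4090 ± 1045 and was lower in SJL than in KS (-0.71, adjusted p = 0.0372), a call lost without B6 replicate 1 or 2 or any 1 of the KS arrays (0.0532 to 0.111), with no filter (0.120) and with only the 6 arrays compared (0.0782). Averaged over the probe sets of Hs3st3b1, the difference was -0.17 (adjusted p = 0.151). The other probe sets in that mean were not tested and lay between 4.57 and 5.46, at the lower end. They shrink the difference, so the mean cannot decide on the call. Extl2, a transferase that acts on the linker, averaged 1800 ± 102, 2617 ± 227 and 2034 ± 196 and was higher in KS than in B6 (0.53, adjusted p = 0.0224). That call was lost without B6 replicate 2 or 3 or KS replicate 2 or 3 (0.0629 to 0.0943) and with the replicate number as a block (0.0614). Ext1, a polymerase of the chain named after its values were seen, was also higher in KS than in B6 (289 ± 21.0 and 416 ± 57.7, adjusted p = 0.0360), but that call was lost in 11 of 21 alternatives, with adjusted p-values up to 0.123. They include leaving out KS replicate 3 (0.118), KS replicate 2 (0.123), B6 replicate 1 (0.118) or B6 replicate 2 (0.0920), or SJL replicate 1 (0.0559) or 3 (0.0648), and the replicate number as a block (0.0568). Ugdh makes the UDP-glucuronic acid that both heparan sulfate and hyaluronan need. It averaged 4842 ± 274 in B6, 3759 ± 176 in KS and 3562 ± 299 in SJL and was lower in SJL than in B6 (-0.44, adjusted p = 0.0134), a call lost without SJL replicate 3 (0.0527). The KS arrays of Ugdh also lay below all B6 arrays (-0.36, adjusted p = 0.0637). That difference was not called as reported, but was called in 5 of 21 alternatives. Between SJL and KS Ugdh differed by -0.08 (adjusted p = 0.633).

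**Figure D4:**
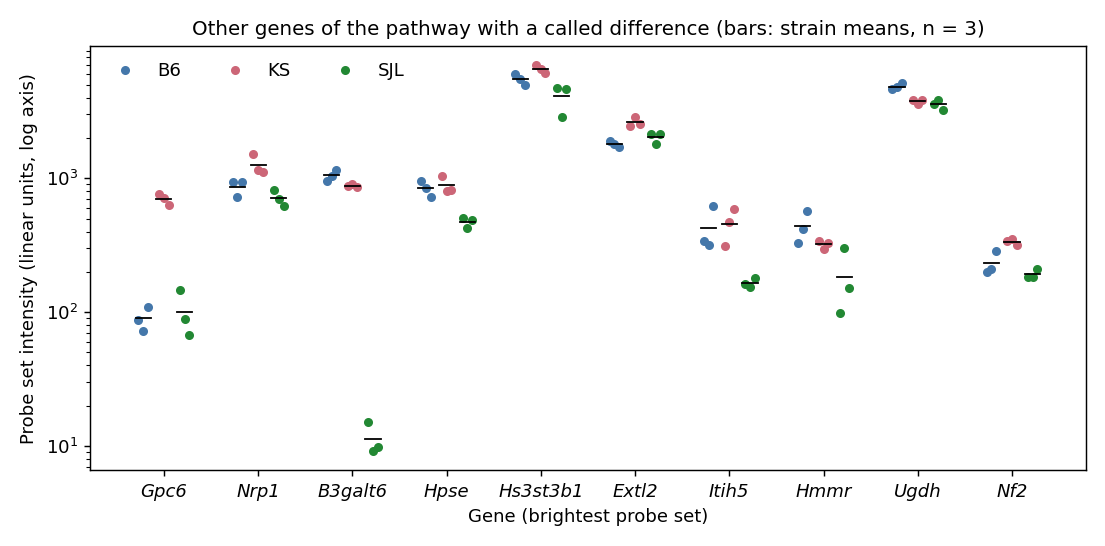
Intensity (log axis) on the 9 arrays of the 10 related genes named by rule, with points for arrays and bars for strain means (n = 3). Gpc6 is high in KS with a mean of 698, and B3galt6 is near the lower end in SJL with a mean of 11.3.

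Of 11 tested genes of hyaluronan, 1 was lower in SJL than in KS and 3 were lower in SJL than in B6, Ugdh among them. Itih5, a heavy chain of the family that can be linked to hyaluronan, lay at 342, 318 and 625 in B6, at 313, 472 and 584 in KS and at 163, 155 and 181 in SJL. All SJL arrays were below the others, with differences of -1.36 from KS (adjusted p = 0.0133) and -1.25 from B6 (adjusted p = 0.0192), and its second tested probe set was lower in SJL in both contrasts. The first call was lost without KS replicate 2 (0.0520) or 3 (0.0507) and the second without SJL replicate 2 (0.0549), and both were lost with no filter (0.0632 and 0.0819). Hmmr, a hyaluronan receptor that also serves the mitotic spindle, averaged 440 ± 123 in B6, 321 ± 23.0 in KS and 184 ± 106 in SJL and was lower in SJL than in B6 (-1.32, adjusted p = 0.0376). That call was lost without B6 replicate 2 or 3, any 1 of the KS arrays, or SJL replicate 1 or 3 (0.0608 to 0.113), with no filter (0.138) and with only the 6 arrays compared (0.107). Both other tested probe sets of Hmmr were also called lower in SJL than in B6 (-0.98, adjusted p = 0.0125, and -0.57, adjusted p = 0.0164). The dimmer of them lay near the lower end, with means of 20.1 in B6 and 10.3 in SJL. The enzymes Cemip, Cemip2 and Hyal2, which break hyaluronan down or help to, were not called in any contrast, and Cemip2 averaged 2452 in B6, 2482 in KS and 2299 in SJL.

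Of the 7 relatives of versican and link proteins, such as Acan and Hapln1, 0 were tested, and their strain means were 5.30 or lower. Of 16 tested adaptors, proteases and receptors, 1 was lower in SJL than in KS and 0 were called in the other contrasts. It was Nf2, merlin, a relative of ezrin that binds the tail of CD44, at 234 ± 48.1 in B6, 336 ± 16.5 in KS and 192 ± 16.4 in SJL (-0.78, adjusted p = 0.00620). Its second tested probe set went the other way, at 36.4 ± 13.2, 13.2 ± 1.35 and 39.3 ± 7.65 (1.08, adjusted p = 0.00629). In KS against B6 that probe set was called lower (-0.97, adjusted p = 0.0227), with its KS arrays at 11.8 to 14.5, near the lower end. The Nf2 gene value there was 0.52 and not called (adjusted p = 0.0723). In SJL against KS, 98 of 4985 genes with at least 2 tested probe sets (1.97%) had 1 called higher and another called lower. That share was 0.181% for KS minus B6 and 1.66% for SJL minus B6. Syntenin (Sdcbp), which binds the syndecan tails, averaged 5186 in B6, 5423 in KS and 5747 in SJL, and ezrin (Ezr) 7112, 5953 and 6340, and neither was called.

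Markers of some cell types also moved with SJL. The summed intensity of 8 stromal markers was 53592 to 56689 in SJL, 60784 to 68153 in KS and 58391 to 65748 in B6, with 2 of 8 tested markers lower in SJL than in KS. That of 6 markers of conjunctiva and limbus was 6695 to 8397 in SJL, 21602 to 24088 in KS and 24199 to 29682 in B6, with 3 of 5 tested lower in SJL than in KS and the defining goblet cell gene Muc5ac below 16 on all arrays. Krt13 and Krt15 made up most of that sum, with means of 3709 and 112 in SJL against 12120 and 8079 in KS, while Krt19 of the same list was higher in SJL than in B6 (0.67, adjusted p = 0.0192). That of 4 nerve and Schwann cell markers was 144 to 190 in SJL, 586 to 899 in KS and 549 to 663 in B6, with Sox10 and S100b below 16. Ngfr carried that sum, and Gap43, the other tested marker, averaged 7.95 in SJL, 7.87 in B6 and 24.5 in KS. The 8 epithelial markers summed to 140089 to 147397 in SJL, 141245 to 142778 in KS and 145962 to 148367 in B6. Of these Krt14 was higher in SJL than in B6 (0.37, adjusted p = 0.0456). The 6 lens markers summed to 58.4 to 125 in SJL, 44.9 to 47.6 in KS and 44.8 to 47.8 in B6, with 5 below 16 on all arrays. The 1 lens marker tested was called higher in SJL than in KS and in B6. The part of these markers in the lower Cd44, Hpse, Itih5 and B3galt6 signal in SJL was not tested. Nor was their part in the signal of both Sdc4 probe sets, or in the Nrp1 difference between SJL and KS. Of the 5 vessel markers on the array Pecam1, Cdh5, Hba-a1 and Tek were below 16 on all arrays, and Kdr was lower in SJL than in B6 (-1.07, adjusted p = 0.0161). Of the 8 leukocyte markers Ptprc, Cd3e and Ms4a1 were below 16, Cd74 was lower in SJL than in KS and B6 (-0.70 and -1.05, adjusted p = 0.0142 and 0.00184), and Itgam was higher (1.11 and 1.31, adjusted p = 0.00519 and 0.00213).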

How the data were processed

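Central corneal RNA of 9 male mice, 3 each of B6, KS and SJL, was measured on Affymetrix arrays. The authors deposited 1 linear intensity per probe set and array. They had summarised the probes and brought the arrays close together before deposit, with upper quartiles of 380 to 398, and the methods used are not given in the sources used here. Arrays carry no read depth, so precision is limited by having 3 of them for each strain.

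Leaving aside controls, 34945 of 45037 probe sets had a single symbol in the annotation of the platform. Intensities were transformed to log2(intensity + 10). The 22519 probe sets whose mean reached the median of all were tested. The limma 3.58.1 model in R 4.3.3 gave each strain its own mean, with Benjamini-Hochberg adjustment over the probe sets tested and a two-sided threshold of 0.05. The fit was tested on simulated data.

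All 10 members were named, with, from each list of related genes, up to 4 called genes with the largest differences. For the 2 members with the widest range of strain means, the 3 genes nearest in pattern were named. Other genes were named after their values were seen. Members and lists were chosen with earlier results of these data known. The alternatives were other filters, scalings and pseudocounts, a variance trend, the replicate number as a block, array weights, 6 arrays per contrast, other choices among probe sets, and leaving out each array.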

Additional observations from a re-analysis of the deposited data

How the results depend on the processing

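The number of calls moved with the filter and the variance model. With the filter at the 70th percentile the probe sets called numbered 2101 in SJL against KS, 742 in KS against B6, 2156 in SJL against B6 and 2659 for any strain difference, against 3489, 1286, 3605 and 4374 as reported. With array weights, whose default estimate did not converge so that the gene-by-gene method was used, they numbered 7121, 2139, 5546 and 7916, and with no filter 838 in KS against B6. Without single arrays they ran from 2343 to 3662, 748 to 1449, 2545 to 3694 and 3101 to 4296. The members called in SJL against KS, 0 as reported, numbered 1 with no filter, with a pseudocount of 50, with an intensity trend and with the mean of all probe sets, 2 with array weights, and 0 without any single array. In KS against B6 they numbered 1 as reported, 2 with array weights, 0 with the mean of all probe sets and 0 to 2 without single arrays. In SJL against B6 they numbered 2 as reported, 0 with only the 6 arrays compared and 0 to 3 without single arrays. The 2 called with no filter were Sdc2 and Sdc4 in place of Sdc2 and Cd44. For any strain difference they numbered 1 as reported, 2 with no filter, the filter at the 70th percentile, a pseudocount of 50 or the mean of all probe sets, 3 with an intensity trend, 4 with array weights and 0 to 3 without single arrays. The causes of these shifts were not tested, beyond the number of features tested and of arrays that a setting itself changes.

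The replicate number as a block gave 3315, 1124 and 3509 calls in the 3 contrasts and the same counts of members called as the fit without it. Same-numbered arrays of different strains had deviations that correlated between -0.266 and 0.263, above 0.1 in 3 of 9 pairs, so the numbers were not taken to pair the mice. The block ended the calls of Extl2 (0.0614) and Ext1 (0.0568) in KS against B6 and of probe set 1417012_at of Sdc2 in SJL against B6 (0.0527), and no other call among the named members and related genes. Over the named genes and member probe sets 1554 values under alternatives stayed on their side of the threshold. In the same direction, 60 were no longer called and 34 became called. A further 5 changed direction with a call in the reported or the alternative fit. Changes of direction with no call in either fit are among the 1554. For example, Gpc1 in SJL against B6 ran from -0.27 to 0.02 without single arrays. With the mean of all probe sets Sdc4 was higher in SJL than in KS (0.63) and in B6 (0.66), and Nf2 differed by 0.11 in SJL against KS. This mean also takes in probe sets too dim to be tested, such as those of Nf2, Sdc2 and Hs3st3b1. Among plain probe sets Nf2 differed by 1.08 in SJL against KS and by -0.97 in KS against B6. Scaling moved no direction of a called member. Precision is limited by having 3 arrays per strain, and the estimated array weights also differed, from 0.316 (SJL replicate 2) to 3.38 (SJL replicate 3).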
